A study of Mus musculus with 8 samples.

Results

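Ubiquitin ligases of muscle atrophy are the enzymes that mark muscle proteins for breakdown when a muscle wastes. The set described here was given by name as 10 genes: Trim63, Trim54, Trim55, Fbxo32, Fbxo30, Fbxo31, Fbxo40, Fbxo21, Asb2 and Cblb. Of these, 9 were matched by symbol to rows of an expression table with 38741 distinct symbols, and all 9 passed the filter on low values that left 11118 genes to test. Fbxo31 is not analysed here. The table gives mRNA levels in gastrocnemius (a predominantly fast-twitch muscle of the calf) from 4 knockout (KO) and 4 wild-type (WT) male mice on a C57BL6 background.

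The KO mice were homozygous for the allele Bcat2tm1.2Clyn, per the labels, which name no Cre or promoter. Their age was 10 to 11 weeks and their body weight averaged 19.5 ± 4.2 g (SD, n = 4). WT mice had an age of 9 to 10 weeks and a body weight of 24 ± 1.41 g (SD, n = 4). Bcat2 encodes BCATm, the enzyme in mitochondria that begins the catabolism of branched-chain amino acids by removing their amino group. Mice of both genotypes chose between chow and a diet without branched-chain amino acids.

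A ubiquitin ligase brings a ubiquitin-loaded E2 enzyme to a chosen substrate, and substrates that carry ubiquitin chains are cut up by the proteasome. Trim63 (MuRF1) and Fbxo32 (atrogin-1) are the ligase mRNAs best known for going up in fasting, denervation, disuse and glucocorticoid excess, and Foxo transcription factors, which insulin signalling holds in check, switch both on. Their transcripts are widely used as a readout of the muscle wasting program. MuRF1 and its relatives MuRF3 (Trim54) and MuRF2 (Trim55) are RING ligases of the sarcomere, the F-box proteins and Asb2 choose substrates for cullin ligases, and Cblb is a RING ligase that can act on insulin receptor substrate 1.

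Levels are FPKM, read counts divided by exon length and by the mapped reads of the library, so levels of different genes can be compared. Bcat2 itself read 2.09 to 5.26 FPKM in KO mice and 41.2 to 83 FPKM in WT mice, so the KO mean was 6.18% of the WT mean (log2 change -3.65, limma adjusted p = 0.00245, n = 4 each). The labelled tissue matched its markers: the 6 of 7 fast-fibre markers with a row summed to between 72650 and 110500 FPKM in KO mice and between 72070 and 87100 FPKM in WT mice. All 7 adipocyte markers had a row and none was at 0 in any mouse. They summed to 8266 FPKM in KO6 and 1328 to 2030 FPKM in the other KO mice, against 15700 FPKM in WT1 and 614 to 738 FPKM in the other WT mice. The 5 keratinocyte markers summed to 464 FPKM in KO6 and to 2.07 to 2.64 FPKM in the other KO mice, against 1.16 to 2.2 FPKM in WT mice, and Krt14 was listed at 0 in KO5, WT1, WT3 and WT4. Relative to WT2, library depth was 0.547 to 1.21 in KO mice and 0.435 to 1.22 in WT mice.

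Promoter sequences are shown first for 3 members, and a link between sequence and mRNA level was not tested. The members are Trim63, with the highest mean FPKM in KO mice, its relative Trim54, and Fbxo40, with the smallest p between genotypes. The sequences run from 250 bases before to 50 bases after the transcript start, 5′ to 3′. They come from RefSeq on GRCm38.p6 (the patch release of mm10), where 7 of the 9 members had an entry. Fbxo32 and Trim55 had none, so their promoters were not searched. Trim63 lies at chr4:134314870-134315169 on the plus strand, Trim54 at chr5:31116362-31116661 on the plus strand and Fbxo40 at chr16:36990418-36990717 on the minus strand. Capitals mark matches to the motifs searched.
Trim63: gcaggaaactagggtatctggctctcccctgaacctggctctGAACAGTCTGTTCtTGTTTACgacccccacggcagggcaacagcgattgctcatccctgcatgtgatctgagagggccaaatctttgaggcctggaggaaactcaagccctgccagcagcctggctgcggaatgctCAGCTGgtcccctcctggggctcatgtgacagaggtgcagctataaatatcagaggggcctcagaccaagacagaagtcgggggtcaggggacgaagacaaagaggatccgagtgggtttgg
Trim54: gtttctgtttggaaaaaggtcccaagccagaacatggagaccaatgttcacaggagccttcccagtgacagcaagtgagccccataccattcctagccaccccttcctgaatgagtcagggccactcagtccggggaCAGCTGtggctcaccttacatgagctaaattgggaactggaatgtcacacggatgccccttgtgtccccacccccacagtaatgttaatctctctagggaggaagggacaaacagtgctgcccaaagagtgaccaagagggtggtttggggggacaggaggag
Fbxo40: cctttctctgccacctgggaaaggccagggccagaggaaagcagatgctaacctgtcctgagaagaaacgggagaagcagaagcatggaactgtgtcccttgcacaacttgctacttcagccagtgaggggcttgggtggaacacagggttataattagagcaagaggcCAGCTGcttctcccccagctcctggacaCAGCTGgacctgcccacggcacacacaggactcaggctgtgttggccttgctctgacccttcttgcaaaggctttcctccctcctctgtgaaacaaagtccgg

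4 motifs were searched on both strands. They were the Foxo element GTAAACA, the glucocorticoid response element (GNACA and TGTNC with a gap of 3 bases), the myogenic E-box CAGCTG, and a MEF2 motif (CTA and TAG with 4 bases between them). The Trim63 window held the glucocorticoid element at -208 to -196 from the start and the Foxo element, read on the opposite strand, at -194 to -188, with 1 base between them, and an E-box at -72 to -67. Among the members with an entry, no other window held either of the first 2 motifs. These occurred in 0.475% (glucocorticoid) and 3.65% (Foxo) of 32851 RefSeq promoter windows of this length. Trim54 had an E-box at -113 to -108, and Fbxo40 had E-boxes at -81 to -76 and -53 to -48. The 7 members had 9 windows, and E-boxes were found in 5 of the 9, from 4 members, against 16.3% of all windows. The E-box of Asb2 lay after the start, at 21 to 26. The MEF2 motif was found in none, against 3.69% of all windows. These are matches of letters and were not tested as binding sites.

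The levels of the members spanned 2 orders of magnitude, from a mean over the 8 mice of 186 FPKM for Asb2 to 1.85 FPKM for Cblb. In KO mice the order was Trim63, Asb2, Trim54, Fbxo32, Fbxo40, Trim55, Fbxo30, Fbxo21 and Cblb. In WT mice it was Asb2, Trim63, Trim54, Fbxo40, Fbxo32, Trim55, Fbxo30, Fbxo21 and Cblb. In KO mice, the values of neighbours in that order overlapped for Trim63 and Asb2, for Trim54, Fbxo32 and Fbxo40 in turn, and for Fbxo21 and Cblb. In WT mice they overlapped for Asb2, Trim63 and Trim54 in turn, for Fbxo40 and Fbxo32, and for Fbxo21 and Cblb. Trim63 stood at the 96.3rd percentile of tested genes by mean FPKM and Fbxo32 at the 91.5th.

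**Figure D1:**
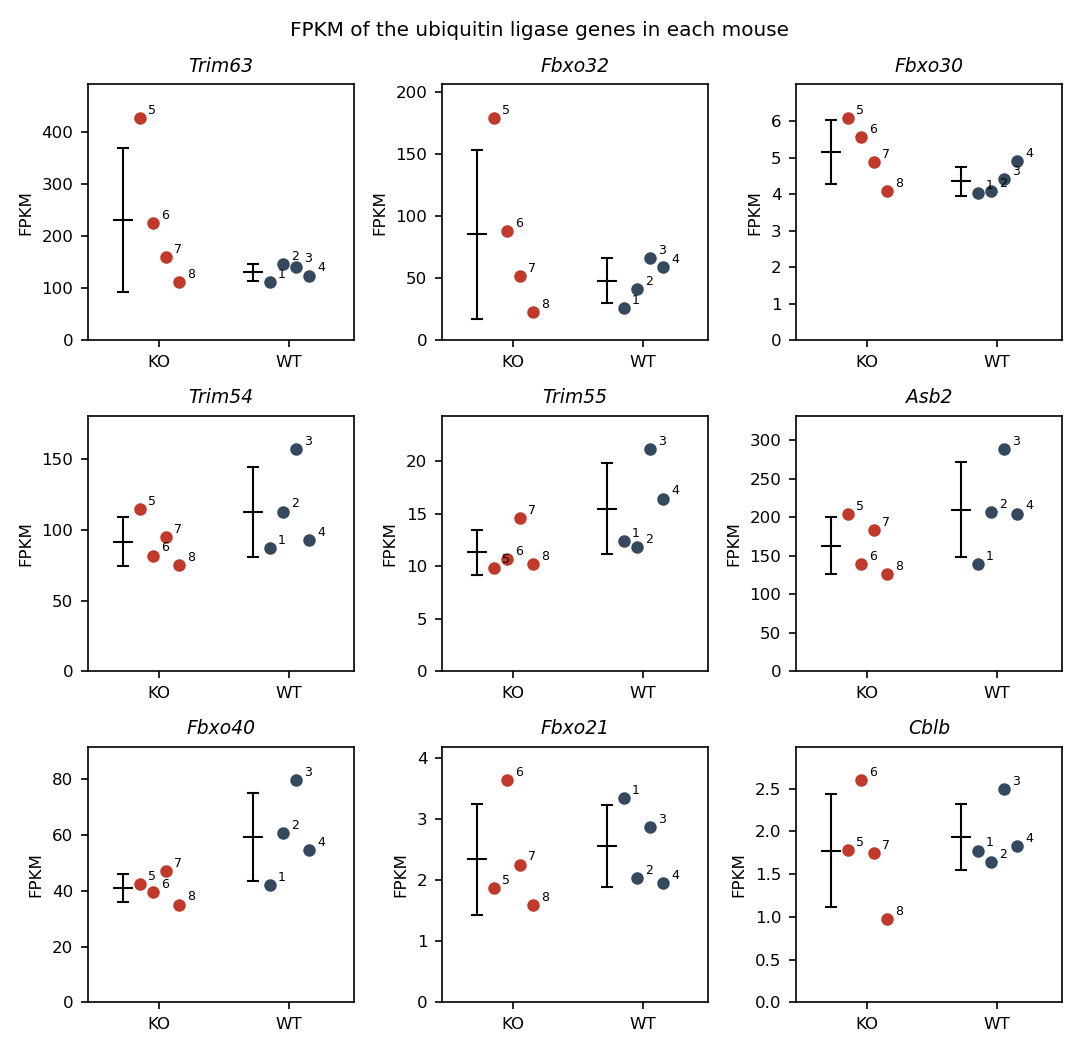
FPKM of the 9 measured ligase mRNAs in each mouse (vertical axes, separate for each gene, starting at 0), with KO mice left of WT mice; points are mice, marked by their number, and the tick and whiskers beside them are the mean and SD over 4 mice. KO5 stands alone at the top for Trim63 (426 FPKM) and Fbxo32 (179 FPKM), while the KO means of Fbxo40, Asb2, Trim54 and Trim55 lie below the WT means with overlapping points.

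Among the RING ligases of the sarcomere, Trim63 had a higher mean in KO mice and Trim54 and Trim55 lower ones, and none of the 3 passed the adjusted threshold. Trim63 (ENSMUSG00000028834, chromosome 4, 134315120 to 134329629, mm10) encodes MuRF1, which sits at the M-band through titin and acts on thick-filament proteins. It read 426 FPKM in KO5, 225 in KO6, 160 in KO7 and 112 in KO8, against 111 in WT1, 146 in WT2, 141 in WT3 and 124 in WT4. KO5, KO6 and KO7 were above every WT mouse, and KO8 was level with the lowest WT mouse, so the genotypes overlapped. The mean was 231 ± 138 FPKM in KO mice and 131 ± 15.9 FPKM in WT mice (SD, n = 4 each), with a coefficient of variation of 60% in KO mice and 12.2% in WT mice. The log2 change on the log2(FPKM + 1) scale was 0.64 (SE 0.36, 95% interval -0.19 to 1.47), with a limma adjusted p = 0.505 and an exact permutation p = 0.171. Single KO mice decided much of the size: without KO5 the log2 change was 0.29 (limma adjusted p = 0.668). Without KO8 it was 0.93 (limma adjusted p = 0.689).

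Trim54 (ENSMUSG00000062077, chromosome 5, 31116712 to 31137630) encodes MuRF3, which binds microtubules and can pair with MuRF1. It read 115 FPKM in KO5, 81.9 in KO6, 94.9 in KO7 and 75.2 in KO8, against 87.4 in WT1, 113 in WT2, 157 in WT3 and 92.6 in WT4. KO6 and KO8 were below every WT mouse, KO5 was within the WT range, and the log2 change was -0.27 (SE 0.22, 95% interval -0.77 to 0.23, limma adjusted p = 0.611). Trim54 shares 382 of its 1436 annotated exonic bases with the antisense gene Gm15469, listed at 40.4 to 70.2 FPKM in KO mice and 47.6 to 93.6 FPKM in WT mice, and no strand setting is given in the sources used here, so reads of the pair cannot be told apart.

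Trim55 (ENSMUSG00000060913, chromosome 3, 19644460 to 19691599) encodes MuRF2, a titin-binding relative with a role in sarcomere assembly. It read 9.89 FPKM in KO5, 10.7 in KO6, 14.6 in KO7 and 10.2 in KO8, against 12.5 in WT1, 11.9 in WT2, 21.2 in WT3 and 16.5 in WT4. All 4 KO mice were below the WT mean and 3 were below the lowest WT mouse. The log2 change was -0.40 (SE 0.21, 95% interval -0.87 to 0.075, limma adjusted p = 0.487).

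The mix of MuRF mRNAs separated the genotypes without overlap, a quantity chosen after the values were seen and given as a description. It is among 6 ratios and sums computed from the members, and the shares that hold Fbxo32 overlapped between genotypes. Single genes did not overlap for 6.75% of those tested, and how often ratios of other genes do not was not computed. Trim63 made up 77.4% of the summed FPKM of the 3 MuRF genes in KO5, 70.8% in KO6, 59.3% in KO7 and 56.7% in KO8, against 52.7% in WT1, 53.9% in WT2, 44.2% in WT3 and 53.2% in WT4. The means were 66.1 ± 9.74% in KO mice and 51 ± 4.57% in WT mice (SD, n = 4 each), a difference of 15.1 percentage points, or 11.3 without KO5. Even the lowest KO share stood above the highest WT share. The ratio of Trim63 to Trim54 also kept the genotypes apart, at 1.48 to 3.72 in KO mice and 0.898 to 1.34 in WT mice, while that of Trim63 to Trim55 overlapped, at 11 to 43.1 in KO mice and 6.67 to 12.3 in WT mice. A ratio shows unequal change within a library and does not say which gene moved, and the share of Trim54 with its antisense partner also enters it. The summed FPKM of the 3 genes overlapped, at 197 to 551 in KO mice and 211 to 320 in WT mice.

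**Figure D2:**
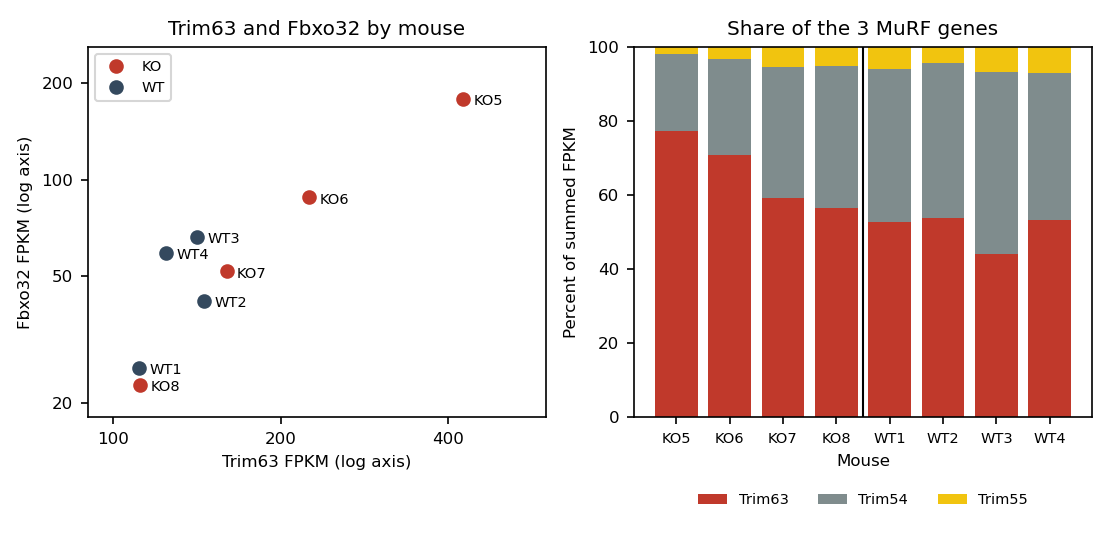
Left, Fbxo32 against Trim63 in the 8 mice, both in FPKM on log axes, with KO5 at the upper right. Right, Trim63, Trim54 and Trim55 as percent of their summed FPKM in each mouse, KO mice left of WT mice; the Trim63 share runs from 56.7% to 77.4% in KO mice and from 44.2% to 53.9% in WT mice.

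Among the F-box substrate receptors, Fbxo32 and Fbxo30 had higher means in KO mice, Fbxo40 and Fbxo21 lower ones, and none passed the adjusted threshold. Fbxo32 (ENSMUSG00000022358, chromosome 15, 58175879 to 58214892) encodes atrogin-1, a muscle-restricted F-box protein with MyoD and the translation factor eIF3f among its reported substrates. It read 179 FPKM in KO5, 88 in KO6, 51.6 in KO7 and 22.7 in KO8, against 25.8 in WT1, 41.7 in WT2, 66.3 in WT3 and 58.8 in WT4. KO5 and KO6 were above every WT mouse and KO8 was below every WT mouse. The mean was 85.4 ± 68.1 FPKM in KO mice and 48.1 ± 18.1 FPKM in WT mice (SD, n = 4 each). The log2 change was 0.53 (SE 0.58, 95% interval -0.80 to 1.86), with a limma adjusted p = 0.676 and an exact permutation p = 0.457. Without KO5 it was 0.053 (limma adjusted p = 0.968), and without KO6 and WT1, the libraries with the high adipocyte sums, it was 0.13. Without KO8 it was 1.03 (limma adjusted p = 0.689).

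Fbxo30 (ENSMUSG00000047648, chromosome 10, 11281330 to 11298052) encodes MUSA1, an F-box protein required for muscle loss after denervation in mice. It read 6.08 FPKM in KO5, 5.56 in KO6, 4.87 in KO7 and 4.09 in KO8, against 4.02 in WT1, 4.09 in WT2, 4.41 in WT3 and 4.89 in WT4. As with Fbxo32, KO5 and KO6 were above every WT mouse, but the log2 change was only 0.19 (SE 0.14, 95% interval -0.13 to 0.51, limma adjusted p = 0.579).

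Fbxo40 (ENSMUSG00000047746, chromosome 16, 36963460 to 36990467) encodes a muscle-restricted F-box protein that targets insulin receptor substrate 1 after IGF1 stimulation. It read 42.4 FPKM in KO5, 39.5 in KO6, 46.9 in KO7 and 35.1 in KO8, against 41.9 in WT1, 60.8 in WT2, 79.8 in WT3 and 54.6 in WT4. All 4 KO mice were below the WT mean, and WT1 was the only WT mouse inside the KO range. The mean was 41 ± 4.99 FPKM in KO mice and 59.3 ± 15.8 FPKM in WT mice (SD, n = 4 each). The log2 change was -0.49 (SE 0.20, 95% interval -0.95 to -0.03), with a limma adjusted p = 0.48 and an exact permutation p = 0.0857.

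Fbxo21 (ENSMUSG00000032898, chromosome 5, 117976770 to 118010191) encodes SMART, an F-box protein needed for full denervation atrophy in mice. It read 1.6 to 3.65 FPKM in KO mice, with KO6 highest, and 1.96 to 3.35 FPKM in WT mice, with WT1 highest. The log2 change was -0.11 (limma adjusted p = 0.836), within the spread between mice.

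Asb2 (ENSMUSG00000021200, chromosome 12, 103321142 to 103356001) encodes an ankyrin repeat protein with a SOCS box that joins Cul5 ligases and targets filamins. It read 204 FPKM in KO5, 139 in KO6, 183 in KO7 and 126 in KO8, against 139 in WT1, 207 in WT2, 288 in WT3 and 205 in WT4. All 4 KO mice were below the WT mean, and the log2 change was -0.34 (SE 0.25, limma adjusted p = 0.577, exact permutation p = 0.143). Cblb (ENSMUSG00000022637, chromosome 16, 52031549 to 52208047) encodes a RING ligase that also restrains T cells. It read 0.975 to 2.6 FPKM in KO mice and 1.64 to 2.49 FPKM in WT mice, with a log2 change of -0.10 (limma adjusted p = 0.831).

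Over the set, 0 of 9 members passed a limma adjusted p of 0.05, against 0.027% of the 11118 genes tested. The 4 mice per group allow an exact permutation p no smaller than 0.0286, and the adjusted p of the members ran from 0.48 to 0.836. At an unadjusted p under 0.05, 0 members were higher in KO mice, against 2.99% of genes, and 1 (Fbxo40) was lower, against 7.33% of genes. The values of KO and WT mice overlapped for all 9 members, while they did not for 6.75% of genes. The KO mean was above the WT mean for Trim63, Fbxo32 and Fbxo30 and below it for the other 6. The median log2 change of the members was -0.11, close to the -0.12 of all tested genes. The deposited FPKM carry a general shift toward lower values in KO mice, which median-ratio scaling moves to a median of 0.0026. Which members passed the unadjusted threshold depended on the setting, while Trim63, Fbxo30 and Fbxo40 kept their direction in all settings. With array weights, Trim63 (log2 change 0.87, limma adjusted p = 0.436) passed as higher and Fbxo40 (log2 change -0.40, limma adjusted p = 0.437) as lower. Without KO8, Trim63 passed as higher, and without WT1, Fbxo40 and Asb2 passed as lower. Under median-ratio scaling Trim63 (log2 change 0.80, limma adjusted p = 0.426) and Fbxo30 (log2 change 0.32, limma adjusted p = 0.425) passed the unadjusted threshold as higher, and Fbxo40 (log2 change -0.34) did not pass. Under quantile scaling Fbxo30 passed as higher (log2 change 0.31, limma adjusted p = 0.438), and Fbxo40 (log2 change -0.47) did not pass. The 4 endothelial markers, none at 0, summed to 20.1 to 39.9 FPKM in KO mice and 36.2 to 60.4 FPKM in WT mice, and their part in the lower ligase means was not tested. In whole muscle, fewer cells of a type and less RNA per cell cannot be told apart.

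**Figure D3:**
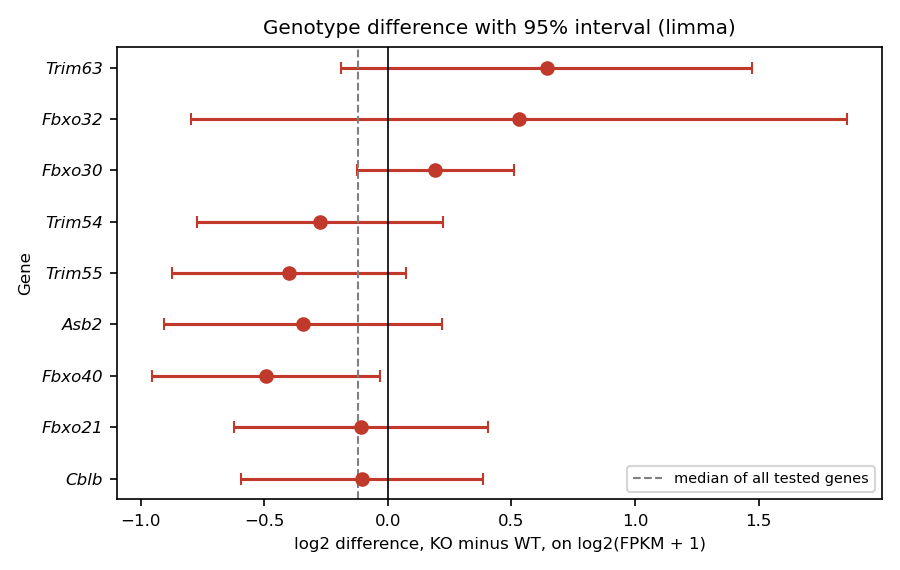
Log2 change of each ligase mRNA, KO minus WT, on the log2(FPKM + 1) scale, with points for the limma estimate, bars for the 95% interval and a dashed line for the median of all tested genes. Of the 9 intervals, the one of Fbxo40 (-0.95 to -0.03) leaves out 0 before adjustment, and the widest is that of Fbxo32 (-0.80 to 1.86).

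The authors' deposited table marks genes for a p-value under 0.05 and under 0.001, by a test not given in the sources used here. Both marks stood on 5 of the 9 members in the authors' deposited table: Trim63 and Fbxo32, with higher KO means, and Trim54, Fbxo40 and Asb2, with lower KO means. The mark for 0.05 in the authors' deposited table stood on 20.2% of the genes tested here. The share of all genes with the mark for 0.001 was not computed, so the count at that mark has no background. None of these 5 members had a limma adjusted p under 0.05 over the 8 mice.

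KO5 was the mouse with the most Trim63, Fbxo32 and Fbxo30. It was the highest of all 8 mice for 3 of 9 members, and for 11.3% of all tested genes. For Trim63 it was 1.9-fold above the next mouse and 3.26-fold above the WT mean, and for Fbxo32 2.04-fold above the next mouse and 3.72-fold above the WT mean. It led every other mouse by at least 1.5-fold for 1.22% of tested genes. KO5 and KO6 both exceeded all 4 WT mice for 3 of 9 members and 13.8% of tested genes. The adipocyte and keratinocyte marker sums of KO5 were 2030 and 2.07 FPKM, far below those of KO6, while its sum over the 4 Schwann cell markers, all of which had a row and none of which was at 0, was the highest of the 8 mice: 103.7 FPKM, with 40.5 to 81.3 in the other KO mice and 29.1 to 58.2 in WT mice. The part of these cells in the ligase levels was not tested. The ages and weights of single KO mice could not be tied to their columns.

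**Figure D4:**
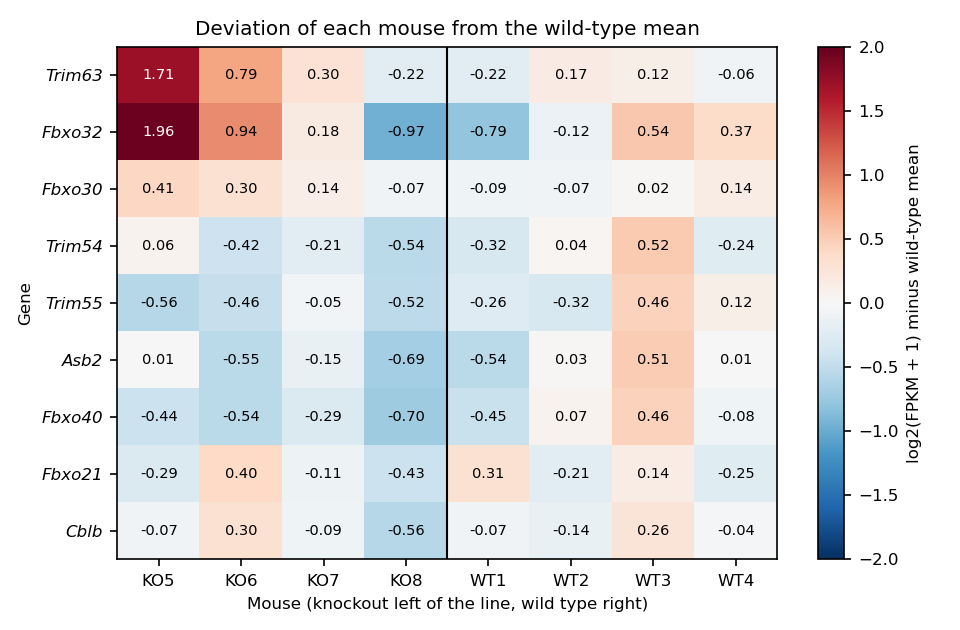
Log2 deviation of each mouse from the WT mean for the 9 ligase mRNAs, on the log2(FPKM + 1) scale, KO mice left of WT mice. KO5 is 1.71 above the WT mean for Trim63 and 1.96 above it for Fbxo32, and KO8 is below the WT mean for all 9 genes, by 0.07 for Fbxo30 to 0.97 for Fbxo32, in a library whose median deviation over all tested genes was -0.35, the lowest of the 8.

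Some of the members varied together between mice. Of 36 pairs, 6 had a Pearson r with a Benjamini-Hochberg adjusted exact permutation p under 0.05, computed on log2(FPKM + 1) over 8 mice. These pairs covered 6 of the 9 members, and Trim55, Fbxo21 and Cblb were in none of them. How often pairs of other tested genes vary together to this degree was not computed, so the count is not particular to the ligases. Trim63 and Fbxo32 had r = 0.91 (exact permutation p = 0.00139, adjusted 0.013) and Spearman rho = 0.79 (exact permutation p = 0.0279, adjusted 0.168), and r within genotypes was 0.92. Without KO5 and KO6, the 2 mice farthest from the median of Trim63, r was 0.71 (exact permutation p = 0.142), so over the other 6 mice the relation did not pass. It was 0.80 without KO5 alone (exact permutation p = 0.0262) and 0.90 without KO6 alone (exact permutation p = 0.0111). Fbxo30 followed both: its r was 0.91 with Fbxo32 (adjusted exact permutation p = 0.013) and 0.89 with Trim63 (adjusted exact permutation p = 0.022). Without the 2 mice farthest from the median, r with Fbxo32 was 0.83 (exact permutation p = 0.0361) and r with Trim63 was 0.49 (exact permutation p = 0.301).

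The other 3 pairs joined Asb2, Trim54 and Fbxo40, with WT3 highest for each, as it was for 33.5% of all tested genes. Asb2 had r = 0.93 with Trim54 and 0.91 with Fbxo40 (adjusted exact permutation p = 0.013 for both), and Trim54 with Fbxo40 had r = 0.87 (adjusted exact permutation p = 0.0396). Asb2 and Fbxo40 had rho = 0.98 (adjusted exact permutation p = 0.0143), and without WT2 and WT3 their r was 0.80 (exact permutation p = 0.0292). The p of the other 2 relations was above 0.05 without KO8 and WT3, with r = 0.81 (exact permutation p = 0.0931) for Trim54 with Asb2 and r = 0.49 (exact permutation p = 0.315) for Trim54 with Fbxo40. Between these 2 sets of 3 genes, r over the 8 mice ran from -0.22 for Fbxo30 with Fbxo40 to 0.46 for Fbxo32 with Asb2, and r within genotypes from 0.29 to 0.71 for the same pairs. Trim63 had r = 0.23 with Trim54, or 0.60 within genotypes. With Trim55, its r was -0.41 (adjusted exact permutation p = 0.602), or -0.13 within genotypes. All values of a mouse share its library scale, and the pairs are not independent of each other.

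The tested genes most like Trim63 across the 8 mice were Fgf7, Wnt4, Tgfbr1, Osgep and Pigu, with r of 0.98, 0.98, 0.97, 0.95 and 0.95. Among those most like Fbxo32 were Rnmt, Six4 and Epc2, with r of 0.98, 0.96 and 0.95. These values were picked as high among all tested genes, are given as a description, and share the KO5 library. Fgf7, a fibroblast growth factor, read 3.44 FPKM in KO5 and 1.38 to 2.31 FPKM in the other KO mice, against 1.3 to 1.61 FPKM in WT mice. Rnmt, the enzyme that methylates the mRNA cap, read 16.6 FPKM in KO5 and 9.87 to 14.7 FPKM in the other KO mice, against 10.9 to 12.8 FPKM in WT mice.

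The genes around the ligases are given as lists, with counts at an unadjusted p under 0.05, since no gene in any of them passed the limma adjusted threshold. Over all tested genes, 2.99% passed that unadjusted threshold as higher and 7.33% as lower. Among the 10 cullin partners, which carry the F-box proteins and Asb2, 0 passed in either direction and 9 lay above the median change of all genes (list median 0.09). Nedd8, the modifier that activates cullins, averaged 266 ± 26.1 FPKM in KO mice and 214 ± 43.5 FPKM in WT mice (limma adjusted p = 0.488). Of 31 proteasome subunits, 3 passed as higher and 0 as lower (list median 0.03), and Psmb3 averaged 231 ± 11.4 FPKM in KO mice and 161 ± 38.5 FPKM in WT mice (limma adjusted p = 0.48). Of 15 genes for ubiquitin and its E1 and E2 enzymes, 1 passed as higher (list median 0.02): Rps27a, a ubiquitin-ribosomal fusion gene, at 984 ± 182 FPKM in KO mice and 558 ± 183 FPKM in WT mice (limma adjusted p = 0.48).

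Ligases outside the set had passing genes on the lower side only. Of 16 other ubiquitin ligases, 5 passed as lower and 0 as higher (list median -0.28), and of 17 tested muscle Asb and Kelch genes, 6 passed as lower and 0 as higher (list median -0.33). Fbxw7, an F-box protein that targets cyclin E and Myc, averaged 5.01 ± 0.281 FPKM in KO mice and 6.84 ± 0.655 FPKM in WT mice (limma adjusted p = 0.48). Asb12, of the same family as Asb2, averaged 12.4 ± 2.07 FPKM in KO mice and 18.7 ± 4.03 FPKM in WT mice (limma adjusted p = 0.48). Among 14 reported ligase substrates, 2 passed as lower (list median -0.39). Myh4, the heavy chain of the fastest fibres and a MuRF1 target, averaged 2616 ± 402 FPKM in KO mice and 4044 ± 872 FPKM in WT mice (limma adjusted p = 0.48). A note in the deposited table marks its WT2 value as a Cufflinks error. All 4 WT values of Myh4 are whole numbers (2814, 4491, 4798 and 4071 FPKM), unlike the KO values, and its genotype difference carries this limit.

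As lists, Foxo targets and glucocorticoid-responsive genes had their highest median values in KO5 and KO6, relative to all genes of a mouse. The NF-kB pathway list did too, at 0.33 in KO6 and 0.097 in KO5. A link of these lists to the ligase levels was not tested. KO5 and KO6 both exceeded all 4 WT mice for 8 of 13 Foxo targets and 5 of 16 glucocorticoid-responsive genes. They did so for 7 of 10 cullin partners, 12 of 31 proteasome subunits and 13.8% of all tested genes. Both exceeded them for 0 of 16 other ubiquitin ligases and 0 of 18 tested genes of the insulin, myostatin and Foxo pathway. Of 13 tested Foxo targets other than ligases, none passed in either direction, but 12 lay above the median change of all genes (list median 0.31), or 10 without KO5, without both WT1 and KO6, or under quantile scaling. Relative to all genes of a mouse, their median deviation was 0.69 in KO5, 0.41 in KO6, -0.21 in KO7 and -0.09 in KO8, against -0.12 in WT1, -0.37 in WT2, -0.21 in WT3 and -0.13 in WT4. Zfand5, a ubiquitin-binding protein, averaged 168 ± 56.9 FPKM in KO mice and 112 ± 11 FPKM in WT mice (limma adjusted p = 0.484). Of 16 glucocorticoid-responsive genes, 2 passed as higher and 13 lay above the median change of all genes (list median 0.09), or 10 without KO5 and 10 without both WT1 and KO6, where the list median was -0.037, with a median deviation of 0.32 in KO5, 0.31 in KO6, -0.08 in KO7 and -0.09 in KO8, while WT mice lay between -0.30 and 0.01. Cebpd, a transcription factor induced by glucocorticoids, averaged 24.7 ± 17.9 FPKM in KO mice and 5.69 ± 0.374 FPKM in WT mice (log2 change 1.64, limma adjusted p = 0.48), with every KO mouse above every WT mouse. Pdk4 belongs to both the Foxo target list and the glucocorticoid list.

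**Figure D5:**
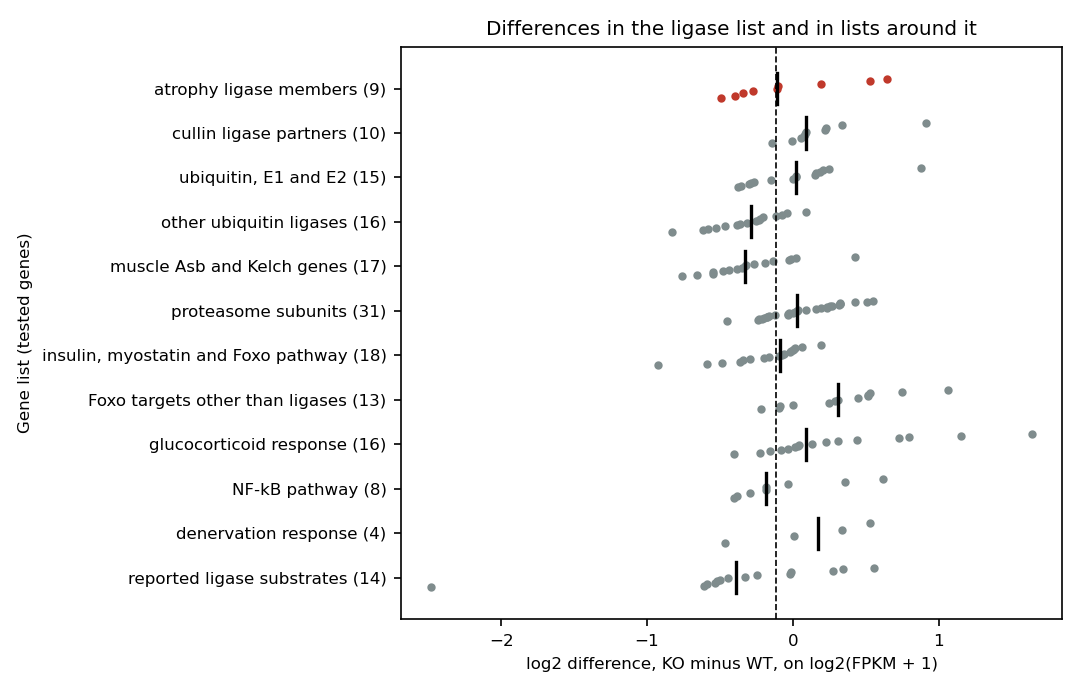
Log2 difference of each tested gene (horizontal axis, KO minus WT, on the log2(FPKM + 1) scale) in the ligase set (top, in red) and in the lists around it, with the number of tested genes in brackets, black ticks for list medians and a dashed line for the median of all tested genes (-0.12). The median of the ligases lies on the dashed line (-0.11), that of the Foxo targets furthest to its right (0.31) and that of the reported substrates furthest to its left (-0.39), where the lone point at -2.48 is Myh1, listed at 0 in KO7.

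Of 18 tested genes of the insulin, myostatin and Foxo pathway, 0 passed as higher and 2 as lower (list median -0.09). Smad3, which carries myostatin signals, averaged 8.18 ± 1.81 FPKM in KO mice and 16.6 ± 4.42 FPKM in WT mice (limma adjusted p = 0.48). Of 8 genes of the NF-kB pathway, none passed (list median -0.18), and Relb averaged 3.02 ± 1.13 FPKM in KO mice and 4.11 ± 0.192 FPKM in WT mice (limma adjusted p = 0.486). Of 11 genes of the denervation response, 4 were high enough to test and none passed (list median 0.17, or -0.14 without KO5). Hdac4, which represses muscle genes after nerve loss, averaged 3.6 ± 1.49 FPKM in KO mice and 5.25 ± 1.79 FPKM in WT mice (limma adjusted p = 0.516).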

How the data were processed

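Gastrocnemius mRNA was read for 50 cycles from one end in TruSeq RNA v2 libraries, aligned to mm10 with TopHat 2.0.9 and, per the labels' protocols, turned into FPKM with Cufflinks 2.0.2. A different release, Cufflinks 2.2.1, stands in the submitters' processing notes. Neither annotation nor strand setting is given in the sources used here. Per the file headers, the deposited FPKM stand in 1 column per mouse beside the authors' marks for a p-value. The knockout columns, KO5 to KO8, could not be tied to single labelled mice. Nothing in the labels speaks of pooled mice, and p-values measure the spread between these 8 mice. FPKM carry no read totals, so no counting interval is given. Relative depth came from the most common ratio to WT2 among genes under 0.3 FPKM in both libraries.

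Symbols on several rows took the row highest in mean FPKM, and genes with a mean of at least 1 FPKM over 8 mice were tested with limma-trend on log2(FPKM + 1), 2-sided, genotype the only term, with Benjamini-Hochberg adjustment over 11118 genes. This scale understates changes of low genes. Single members also had an exact permutation test over the 70 labelled splits. Positions are the deposited start plus 1. Members and lists were chosen with earlier results of these data known. Named genes were all members, Bcat2, from each list the adjusted calls or else the gene with the smallest p, and the 5 genes most like each of Trim63 and Fbxo32, of which 2 are not reported here. The settings varied were the pseudocount (0.1 and 0.5), the filter (none or a mean of 5 FPKM), median-ratio and quantile scaling, array weights, summed rows, each mouse left out, and WT1 and KO6 left out together. Simulated data were used to test the fit. Software was limma 3.58.1 in R 4.3.3, and scipy 1.17.1, pandas 2.3.3 and matplotlib 3.10.9 in Python 3.11.15.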

Additional observations from a re-analysis of the deposited data

Results flagged for a closer look

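Groups of 4 mice were screened for 1 mouse standing apart, by the gap to its nearest neighbour as a share of the group's range, over 30 groups (9 members and 6 ratios in each genotype). Chance flags about 1 in 20 groups, and 3 were found. For Trim55 in KO mice, KO7 was highest at 14.6 FPKM, with a gap of 0.829 of the range. For the percent of the MuRF sum held by Trim63 in WT mice, WT3 was lowest at 44.2%, with a gap of 0.88 of the range. For the ratio of Trim63 to Trim54 in WT mice, WT3 was lowest at 0.898, with a gap of 0.847 of the range. The last 2 share the same Trim63 and Trim54 values.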

How the results depend on the processing

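The count of members called was 0 under all 17 alternatives, and the lowest adjusted p of a member in any of them was 0.382 (limma). Of 150 member values under alternatives, 147 kept their direction. The exceptions were Fbxo21, with a log2 change of 0.0043 under quantile scaling and -0.28 to 0.0024 when mice were left out in turn, and Cblb, with -0.24 to 0.049 when mice were left out, both above 0 without KO8. Fbxo21, Cblb and Fbxo30 drop out at a mean of 5 FPKM. Without WT1 and KO6 together the log2 change of Trim63 was 0.52 and that of Fbxo40 -0.63. The correlation of Trim63 with Fbxo32 was 0.80 to 0.95 when mice were left out in turn and 0.87 to 0.92 under the other alternatives. The Trim63 share of the MuRF sum stayed 11.3 to 18.2 percentage points higher in KO mice when mice were left out, an alternative chosen after seeing the data. Over all genes the count called was 3, with 3 to 8 when mice were left out (8 without KO7, WT1 or WT2 and 5 without KO6 or WT4) and 10 without both WT1 and KO6; the cause was not tested. At an unadjusted p under 0.05, 332 of 1147 genes were higher in KO mice, against 752 of 1298 under median-ratio scaling and 610 of 1259 under quantile scaling. No paired analysis was possible because the knockout columns carry numbers (5 to 8) that match no labelled knockout replicate.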

Other observations

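Of the 11 listed genes of the denervation response, 7 were highest in KO5, the mouse with the most Trim63 and Fbxo32. The other 4 (Hdac4, Ncam1, Dach2 and Myh8) were highest in a WT mouse, and these genes need not all change in the same direction when muscle loses its nerve. The genes given here were singled out after their values were seen and have no test. Chrng, the fetal subunit of the acetylcholine receptor, read 1.86 FPKM in KO5 and 0.554 FPKM in KO6 and was listed at 0 in KO7 and KO8, against 0.0313 FPKM in WT2 and 0 in the other WT mice. Myog, a myogenic transcription factor, read 6.3 FPKM in KO5 and 0.757 to 2.34 FPKM in the other KO mice, against 1.14 to 2.4 FPKM in WT mice. Chrna1, the adult and fetal receptor's alpha subunit, read 5.35 FPKM in KO5 and 1.53 to 3.18 FPKM in the other KO mice, against 2.22 to 3.6 FPKM in WT mice. Ncam1, a cell adhesion molecule, read 0.739 FPKM in KO5 and 0.49 to 0.95 FPKM in the other KO mice, against 0.564 to 1.75 FPKM in WT mice. Outside that list, Cdkn1a, a cell cycle inhibitor and Foxo target, read 69.3 FPKM in KO5, 42.3 in KO6, 10.6 in KO7 and 4.29 in KO8, against 6.18 to 13.3 FPKM in WT mice.

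Insulin receptor substrate 1, the protein that Fbxo40 and Cblb act on, has a gene (Irs1) that read 0.789 FPKM in KO5, 1.2 in KO6, 3.29 in KO7 and 1.59 in KO8, against 3.19 in WT1, 2.2 in WT2, 3.45 in WT3 and 2.75 in WT4. The log2 change was -0.59 (limma adjusted p = 0.484), and 3 of 4 KO mice were below every WT mouse.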
